A study of Mus musculus with 12 samples.

Results

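The question addressed here was whether the effect of doxorubicin on the mouse heart differed between mice with and without Adam17 in cardiomyocytes. For each gene, the difference between doxorubicin and saline in A17fl/fl mice was subtracted from the same difference in A17α-MHCKO mice. A positive value of this interaction means that the doxorubicin effect was more upward, or less downward, in A17α-MHCKO mice, and a negative value means the reverse. All 12 libraries of the series, 3 in each of 4 groups, entered the contrast, and 16101 of 53465 genes had enough counts to be tested.

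The mice were male littermates on a C57BL/6J background, 8 weeks old at the first injection. A17fl/fl mice (labelled FLOXP) carried floxed Adam17 alleles, and A17α-MHCKO mice (labelled MKO) carried the same alleles with Cre recombinase under the α-MHC promoter, which removes exon 2 in cardiomyocytes, so that other heart cells keep the gene. No group carried Cre without floxed alleles, so loss of Adam17 and presence of Cre cannot be told apart. Each genotype received normal saline (NS) or doxorubicin (DOX) in 4 intraperitoneal injections, 5 mg/kg each and 20 mg/kg in total, and hearts were collected 4 weeks after the last injection. The labels number 3 libraries in each group and do not say that each holds a separate mouse. The study's text speaks of mice, with n = 3, for A17fl/fl + NS, A17fl/fl + DOX and A17α-MHCKO + DOX. The p-values measure only the spread between these libraries. Since tissue was sequenced, fewer cells of a type and less RNA per cell cannot be told apart in any value below.

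ADAM17 is a membrane metalloprotease that cuts the extracellular part off other membrane proteins, among them TNF, TNF receptors and ligands of the EGF receptor. Doxorubicin is an anthracycline that poisons topoisomerase II and generates reactive oxygen species, and its lasting damage to cardiomyocytes limits its use against cancer. TRAF3 is an adaptor of TNF receptor and innate immune signaling.

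Total counts were 15950717 to 21725076 per library (median 16413855). One library stood apart from the rest: A17fl/fl + NS replicate 1 lay at -120 on the first principal component, which held 35.2% of the variance, against -12.9 to 28.4 for the other 11. It had 714 CPM (counts scaled to library size with TMM factors) of the neutrophil gene S100a8 against 1.02 to 23.6 in the others, and 4535 CPM of Myh6, the main cardiomyocyte myosin, against 10900 to 17900. The labels name heart and the study's text names the left ventricle, yet the atrial light chain Myl7 was at 0, 1019 and 0.0626 CPM in A17fl/fl + NS mice and between 125 and 769 CPM in the other groups, and the mesothelial gene Upk3b was at 0, 64.6 and 0.188 CPM against 0.189 to 36.9. Myl7 and Upk3b thus varied more within A17fl/fl + NS than within any other group, and the results that replicate 1 moved are given with and without it. The part of atrial and mesothelial tissue in the results was not tested beyond a fit with summed Myl7, Myl4 and Sln as a covariate.

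Adam17 itself was lower in A17α-MHCKO mice. It was at 70.9, 48.7 and 43.6 CPM in A17fl/fl + NS, at 48.1, 53.2 and 48.4 CPM in A17fl/fl + DOX, at 35.3, 34.9 and 34.2 CPM in A17α-MHCKO + NS and at 27.9, 36.8 and 32.2 CPM in A17α-MHCKO + DOX. All 6 libraries of A17α-MHCKO mice lay below all 6 of A17fl/fl mice, and the remaining counts cover the whole gene, not exon 2 alone. The doxorubicin effect on Adam17 was -0.12 in A17fl/fl and -0.11 in A17α-MHCKO mice on the log2 scale, and the interaction was 0.015 ± 0.247 (approximate SE, adjusted p = 0.992 by edgeR's quasi-likelihood test). Its sign turned under some settings, with a range of -0.219 to 0.153, so no direction can be given.

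Traf3 was at 12.1, 10.6 and 9.65 CPM in A17fl/fl + NS and at 25.1, 20.7 and 22.3 CPM in A17fl/fl + DOX. In A17α-MHCKO mice it was at 19.1, 13.8 and 8.31 CPM after saline and at 13.2, 9.68 and 17.9 CPM after doxorubicin. The A17fl/fl groups did not overlap, whereas the A17α-MHCKO groups covered nearly the same range. The effect of doxorubicin was 1.07 in A17fl/fl and -0.02 in A17α-MHCKO mice, an interaction of -1.09 ± 0.403 (adjusted p = 0.828). Without A17fl/fl + NS replicate 1 it was -1.18. Over 23 alternative fits the Traf3 interaction lay between -1.36 and -0.78, and it was smallest in size without A17α-MHCKO + NS replicate 1.

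Across all tested genes, 343 (2.13%) were past the limits that the study used for its pairwise comparisons, namely a mean FPKM above 1 in 1 group or more, an absolute log2 value over 1 and, before adjustment, p under 0.05. Of these, 237 were positive (1.47% of tested genes) and 106 negative (0.658%). Regardless of p, 9060 of all 16101 tested genes had a positive interaction and 7041 a negative one. These shares and signs are the background for the list counts below. The edgeR quasi-likelihood test gave 0 genes at an adjusted p under 0.05, with a smallest adjusted p of 0.524, against 965 genes (5.99%) at an unadjusted p under 0.05, while DESeq2 gave 21 and the likelihood ratio test 11. The share of genes at an unadjusted p under 0.05 is close to the share the threshold itself lets through, so single genes below are ranked descriptions of these 12 libraries. By the quasi-likelihood test the adjusted p was between 0.524 and 0.828 for every gene named below except Arntl (0.844), so none passed. The DESeq2 calls include Eln, Cpxm2, Gzma, Ssu2, Pcdh12, Fgd1, Cxcl14, Zfp970, Ccl11, Gm11627, Gm42517, Ccbe1, Ppp1r16b, G530011O06Rik and Abcb1b (adjusted p 0.000714 to 0.0419). The likelihood ratio calls include Gzma, Eln, Cpxm2, Pcdh12, Gm11627, Cxcl14, Gm42517 and Ccl11 (0.000494 to 0.0453). Passing thus depended on the test, and "past the limits" refers to the unadjusted quasi-likelihood test. Without A17fl/fl + NS replicate 1, 281 of 16406 genes (1.71%) were past the limits, 146 positive (0.89%) and 135 negative (0.823%), and the share of positive values among them was 52.0% in place of 69.1%. Both fits shared 150 genes in the same direction (0.932%), 83 positive (0.515%) and 67 negative (0.416%).

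**Figure D1:**
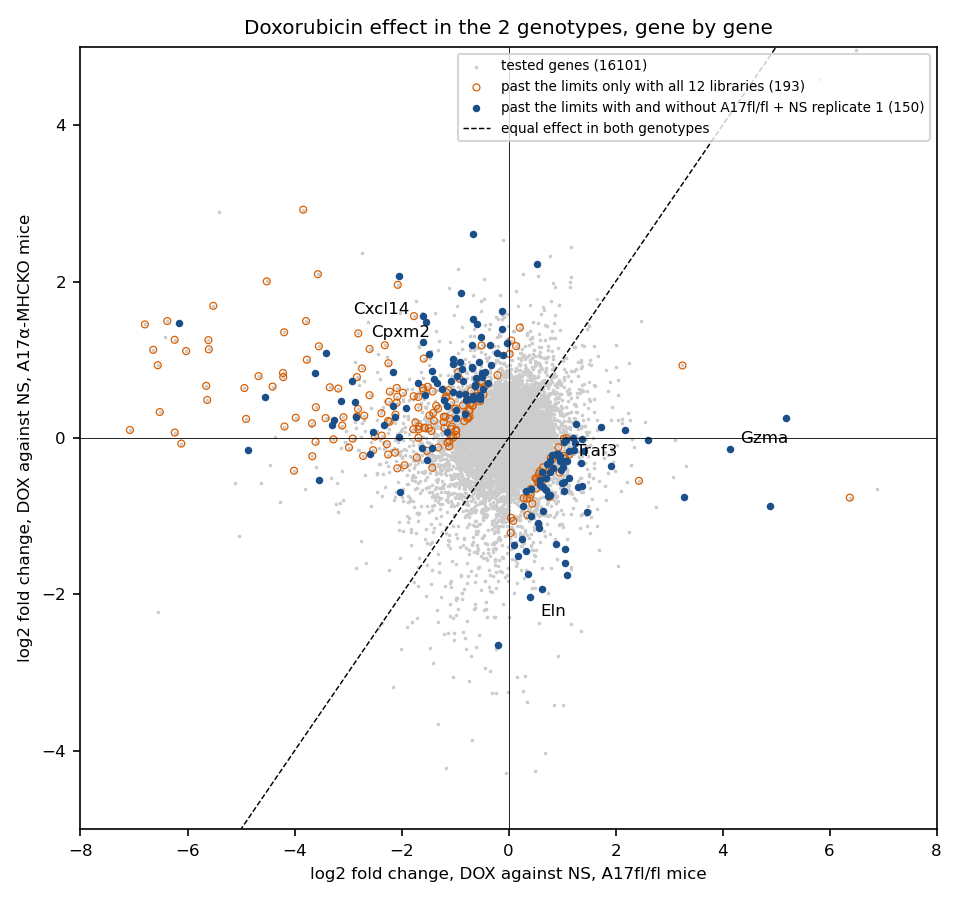
Doxorubicin effect in A17fl/fl mice (horizontal, log2 fold change against saline) and in A17α-MHCKO mice (vertical), with 1 point per tested gene and a dashed line where both effects are equal. Blue points are the 150 genes past the limits with and without A17fl/fl + NS replicate 1, open orange points the 193 past them with all libraries alone, and the latter reach far to the left, where genes were high in that one library; 10 genes lie outside the axes.

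Most genes shared by both fits had estimated doxorubicin effects of opposite sign in the genotypes. Of the 150 genes shared by both fits, 75 were lower after doxorubicin in A17fl/fl and higher in A17α-MHCKO mice, 61 were higher in A17fl/fl and lower in A17α-MHCKO mice, 6 were higher in both and 8 lower in both. These opposite signs follow in part from the choice of genes by the interaction, since 45.5% of all tested genes also had opposite signs. For 24 of the 150 (16%, against 1.2% of all tested genes) doxorubicin had an unadjusted p under 0.05 in both genotypes. For 18 (12%, against 0.646%) saline and doxorubicin did not overlap in either genotype, in opposite directions. In 130 of the 150 (86.7%) the genotypes differed more after saline than after doxorubicin, against 59.2% of all tested genes. The group farthest from the other 3 was A17fl/fl + NS for 90 genes (60% against 38.1% of tested genes) and A17α-MHCKO + NS for 40 (26.7% against 21.1%), and a DOX group for 10 genes in each genotype. All 3 A17fl/fl + NS libraries lay above the other 9 for 17 of the 150 genes and below them for 19 (2.77% of all tested genes lay on either side), and all 3 A17α-MHCKO + NS libraries above for 8 and below for 18 (1.46%). Saline and doxorubicin did not overlap in A17fl/fl mice for 73 genes (13.3%) and in A17α-MHCKO mice for 63 (16.9%). The 150 genes were chosen on the same contrast, so nothing is read from these shares. The spread within A17fl/fl + NS, described above, moves with this, and its part was not tested.

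Among the positive genes with the smallest p that both fits shared were Cpxm2, Gm42517, Zfp970, Ccbe1, Ccl11, Nsg1 and Cxcl14. Cpxm2, a secreted carboxypeptidase-like protein, was at 29.5, 21.1 and 48.4 CPM in A17fl/fl + NS, at 12.7, 9.05 and 13.7 in A17fl/fl + DOX, at 6.54, 8.90 and 5.52 in A17α-MHCKO + NS and at 19.4, 12.1 and 12.9 in A17α-MHCKO + DOX. Saline and doxorubicin libraries did not overlap in either genotype, and they separated in opposite directions. Its interaction was 2.56 ± 0.449 (adjusted p = 0.524), made of -1.48 in A17fl/fl and 1.08 in A17α-MHCKO mice, and it was 2.64 without A17fl/fl + NS replicate 1 and 2.17 with the atrial covariate. The count of genes with no overlap in both genotypes and opposite directions was 104 (0.646%) of all tested genes and includes 5 of these 7 and 4 of the 8 negative genes below, which the ranking favours.

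Secreted signals stood among them. Ccl11 (eotaxin, a chemokine for eosinophils) was at 13.3, 4.37 and 5.33 CPM in A17fl/fl + NS and 3.14, 1.72 and 2.73 in A17fl/fl + DOX, then 1.24, 1.99 and 0.523 in A17α-MHCKO + NS and 4.41, 2.73 and 4.07 in A17α-MHCKO + DOX. It was lower after doxorubicin in A17fl/fl mice and higher in A17α-MHCKO mice, without overlap in either, with an interaction of 3.15 ± 0.720 and 2.49 without replicate 1. Cxcl14, another chemokine, was at 138, 20.2 and 56.9 CPM in A17fl/fl + NS, so that replicate 2 lay below all 3 libraries of A17fl/fl + DOX (22.9, 21.8 and 29.3). In A17α-MHCKO mice Cxcl14 was at 8.64, 11.4 and 9.01 CPM after saline and at 28.8, 27.1 and 25.4 CPM after doxorubicin, and its interaction of 3.02 ± 0.698 became 2.13 without replicate 1 and 1.18 without replicates 1 and 3. Ccbe1, a secreted protein needed for lymphatic vessel growth, was at 17.6, 13.6 and 15.1 CPM in A17fl/fl + NS, 6.10, 9.54 and 10.6 in A17fl/fl + DOX, 6.24, 7.51 and 7.44 in A17α-MHCKO + NS and 10.8, 8.90 and 11.7 in A17α-MHCKO + DOX (interaction 1.38 ± 0.304). The DOX groups of both genotypes met at similar levels, and the NS groups were apart.

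Zfp970, a zinc finger gene of a family whose members can share fragments, was at 31.5, 27.9 and 26.6 CPM in A17fl/fl + NS, 22.8, 15.3 and 16.2 in A17fl/fl + DOX, 16.7, 16.2 and 17 in A17α-MHCKO + NS and 27.7, 20.7 and 22.4 in A17α-MHCKO + DOX. Its interaction was 1.17 ± 0.242 and 1.10 without replicate 1. The remaining pair of positive genes, the predicted gene Gm42517 and Nsg1, which acts in endosomal sorting, had interactions of 2.05 and 1.49.

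**Figure D2:**
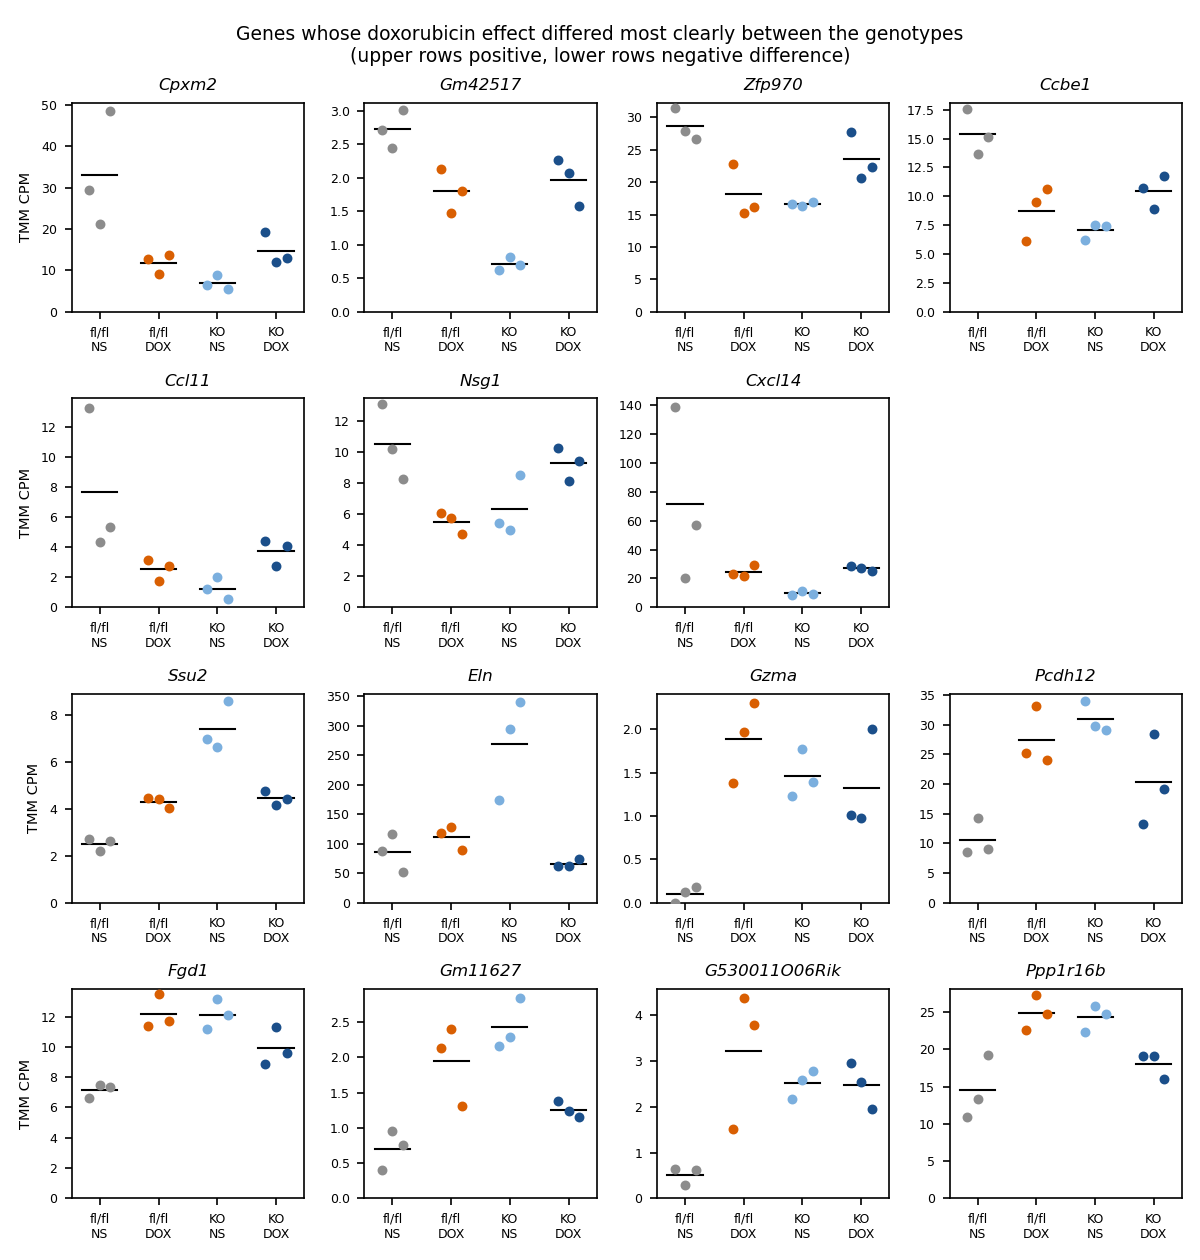
TMM-scaled CPM of 15 genes with the smallest interaction p among those past the limits in both fits, 7 positive and 8 negative, 1 point per library, bars at group means and linear axes from 0, with KO for A17α-MHCKO. For Cpxm2 and Ccl11 the A17fl/fl points go down after doxorubicin and the A17α-MHCKO points go up, and for Eln the A17α-MHCKO + NS points (174, 295 and 340 CPM) lie above all others.

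The 8 negative genes were Ssu2, Eln, Gzma, Pcdh12, Fgd1, Gm11627, G530011O06Rik and Ppp1r16b. Eln encodes elastin, the core of elastic fibres in arteries. It was at 87.4, 118 and 51.4 CPM in A17fl/fl + NS, at 118, 129 and 90.0 in A17fl/fl + DOX, at 174, 295 and 340 in A17α-MHCKO + NS and at 62.0, 61.8 and 73.7 in A17α-MHCKO + DOX. The A17fl/fl groups overlapped, whereas every A17α-MHCKO + NS library lay above the other 9. The interaction of Eln was -2.43 ± 0.431 (adjusted p = 0.524), almost all of it from a doxorubicin effect of -2.04 in A17α-MHCKO mice against 0.40 in A17fl/fl mice. Over all 23 alternative fits it lay between -2.73 and -1.98.

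Gzma, granzyme A of cytotoxic lymphocytes, was counted with 0, 2 and 3 fragments in A17fl/fl + NS and 22, 32 and 37 in A17fl/fl + DOX, and with 20, 41 and 24 fragments in A17α-MHCKO + NS and 16, 15 and 33 in A17α-MHCKO + DOX. The A17fl/fl + NS group thus stood below the other 9 libraries, which overlapped. The fitted interaction of -4.27 rests on that near absence and depends on how such low counts are handled. Other lymphocyte genes had the same sign at equally low counts, and they are given with their list below.

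Pcdh12, a protocadherin of endothelial junctions, was at 8.54, 14.3 and 9.02 CPM in A17fl/fl + NS, 25.1, 33.2 and 24.1 in A17fl/fl + DOX, 34, 29.7 and 29.0 in A17α-MHCKO + NS and 13.2, 28.4 and 19.2 in A17α-MHCKO + DOX. Its interaction was -1.98 ± 0.389, and no group pair within a genotype overlapped. Fgd1, an exchange factor for the GTPase CDC42, was at 6.64, 7.48 and 7.33 CPM in A17fl/fl + NS and between 8.88 and 13.5 CPM in the other 9 libraries (interaction -1.06 ± 0.216). Ppp1r16b, a phosphatase-targeting subunit abundant in endothelium, was at 11, 13.3 and 19.2 CPM in A17fl/fl + NS, 22.6, 27.3 and 24.7 in A17fl/fl + DOX, 22.3, 25.8 and 24.8 in A17α-MHCKO + NS and 19.1, 19.0 and 16 in A17α-MHCKO + DOX (-1.21 ± 0.268). The endothelium list itself had 0 of 22 genes past the limits (2.13% of all tested genes) and a median of -0.15, with 10 positive and 12 negative. Cdh5 and Pecam1, which define endothelium, were between 224 and 391 CPM and between 228 and 327 CPM over all libraries.

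Ssu2 had the smallest unadjusted p of all 343 genes. It was at 2.71, 2.21 and 2.63 CPM in A17fl/fl + NS and at 4.46, 4.43 and 4.04 CPM in A17fl/fl + DOX, against 6.98, 6.65 and 8.60 CPM in A17α-MHCKO + NS and 4.78, 4.16 and 4.43 CPM in A17α-MHCKO + DOX. The NS groups of the genotypes were apart and the DOX groups overlapped, with an interaction of -1.505 ± 0.260 (adjusted p = 0.524) and -1.56 without replicate 1. The genes of unassigned function Gm11627 and G530011O06Rik had interactions of -2.41 and -2.64 at group means under 4 CPM.

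Some genes were past the limits with all libraries but not without A17fl/fl + NS replicate 1. Among the 3 with the smallest p in each direction, Abcb1b, a P-glycoprotein drug exporter for which doxorubicin is a known substrate, was at 26.9, 19.8 and 18.2 CPM in A17fl/fl + NS, 11.2, 11.6 and 14.5 in A17fl/fl + DOX, 11.7, 13.3 and 12.3 in A17α-MHCKO + NS and 17, 14.9 and 14.6 in A17α-MHCKO + DOX. Groups were apart in both genotypes, and the interaction was 1.12 ± 0.247 and 0.93 without replicate 1, so that Abcb1b left the limits by size and not by p. Likewise Serpine2, a thrombin inhibitor, went from 1.04 to 0.85, the nucleoside transporter Slc29a2 from -1.04 to -0.96, the heat shock regulator Hsf1 from -1.17 to -0.996 and the DNA methyltransferase Dnmt3a from -1.05 to -0.84. Cdkn2a, which encodes the senescence-linked p16INK4a and p19ARF, went from 3.74 to 2.68 on at most 59 fragments in a library. Cdkn2a left by the FPKM limit and not by size or p, and its highest group mean FPKM was 1.21 with all libraries.

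Interferon-stimulated genes, which cells induce to present antigen and block viruses, formed the largest group with a shared negative sign. Of 74 tested members of the list, 61 were negative, and 13 negative and 0 positive were past the limits (0.658% and 1.47% of all tested genes). At an unadjusted p under 0.05, 19 were negative and 1 positive (2.49% and 3.5% of all tested genes). Without A17fl/fl + NS replicate 1, 34 were negative and 1 positive at that p (3.3% and 3.82% of all tested genes). The median interaction was -0.74 against 0.06 over all tested genes, made of a median doxorubicin effect of 0.42 in A17fl/fl and -0.29 in A17α-MHCKO mice. Averaged over the list, log2 CPM was 4.79, 3.71 and 4.25 in A17fl/fl + NS, 4.47, 5.01 and 4.44 in A17fl/fl + DOX, 4.88, 5.00 and 4.75 in A17α-MHCKO + NS and 4.19, 4.33 and 5.12 in A17α-MHCKO + DOX. Groups overlapped: A17fl/fl + NS replicate 1 lay above most A17fl/fl + DOX libraries, and A17α-MHCKO + DOX replicate 3 was the highest of the 12.

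The sign of the list median was negative in all 23 alternative fits (-1.29 to -0.48), but the count of negative genes past the limits depended on single libraries. It was 25 without A17fl/fl + NS replicate 1 and 31 without A17α-MHCKO + DOX replicate 3. It was 6 (beside 3 positive genes) without A17fl/fl + NS replicate 2, 5 without A17fl/fl + DOX replicate 2, 7 (beside 1 positive gene) without A17α-MHCKO + NS replicate 1, and 6 without either of A17α-MHCKO + DOX replicates 1 and 2. With the atrial covariate it was 19.

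Within the list, 14 of 14 tested antigen presentation genes were negative, with a median of -0.86 (-1.17 without replicate 1) and 4 past the limits (10 without replicate 1). H2-K1, a classical MHC class I heavy chain, was at 393, 197 and 234 CPM in A17fl/fl + NS, 543, 700 and 701 in A17fl/fl + DOX, 439, 647 and 457 in A17α-MHCKO + NS and 352, 404 and 717 in A17α-MHCKO + DOX. It separated in A17fl/fl mice and overlapped in A17α-MHCKO mice, with an interaction of -1.305 ± 0.443 and -1.65 without replicate 1; H2 genes are near-identical copies that can share fragments. Of the 5 transcription factors, all were negative and 4 had an unadjusted p under 0.05. Irf9, a subunit of the interferon-activated complex ISGF3, was at 36.6, 26.0 and 28.5 CPM in A17fl/fl + NS, 36.2, 48.6 and 38.0 in A17fl/fl + DOX, 65.6, 53.1 and 56.3 in A17α-MHCKO + NS and 39.3, 37.9 and 51.9 in A17α-MHCKO + DOX (-0.87 ± 0.257).

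Bst2 (tetherin, which holds budding viruses at the membrane) was at 49.9, 31.6 and 28.9 CPM in A17fl/fl + NS, 46.5, 81.2 and 51.3 in A17fl/fl + DOX, 68.7, 84.3 and 74.0 in A17α-MHCKO + NS and 43.0, 50.0 and 66.9 in A17α-MHCKO + DOX. The A17α-MHCKO groups were apart and the A17fl/fl groups overlapped at replicate 1, with an interaction of -1.20 ± 0.370 and -1.48 without it. All 14 interferon-inducible GTPases tested were negative (median -1.06), of which Gbp3 was past the limits (-1.58 ± 0.539), and 11 of 14 antiviral effectors were negative (median -0.58), with Rsad2 (viperin) at -1.48 ± 0.537. The 4 sensors of RNA and DNA had 2 negative genes, a median of -0.16 and 0 past the limits. Without replicate 1 all 4 were negative (median -0.71), again with 0 past the limits. Over the whole list, 27 of 74 genes were higher in all A17α-MHCKO + NS than in all A17fl/fl + NS libraries (5.52% of all tested genes), 16 were higher in all A17fl/fl + DOX than in all A17fl/fl + NS libraries (7.15%), and 0 separated the genotypes after doxorubicin (14.1%).

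Many list members share a motif before the start site. The interferon-stimulated response element, searched here on both strands as GAAA, any 2 bases and GAAA (TTTC, any 2 bases and TTTC on the other strand), with overlapping matches kept, stood in the 250 bases upstream of 31 of the 57 tested list members with a RefSeq promoter (54.4%) and of 3.46% of 27025 genes. Of the 10 list members with a promoter entry that were past the limits in both fits, 5 held it. Bst2, Gbp3 and Rsad2 had the smallest interaction p of these 5 and are shown, so they were chosen for holding the motif. The 250 bases upstream of the start in RefSeq, build GRCm38.p6, are given 5′ to 3′ on the strand of the gene. They lie for Bst2 at chr8:71537473-71537722 (minus strand), for Gbp3 at chr3:142559794-142560043 (plus strand) and for Rsad2 at chr12:26456453-26456702 (minus strand). Capitals mark the motif, which overlaps itself in Bst2 and Gbp3.
Bst2: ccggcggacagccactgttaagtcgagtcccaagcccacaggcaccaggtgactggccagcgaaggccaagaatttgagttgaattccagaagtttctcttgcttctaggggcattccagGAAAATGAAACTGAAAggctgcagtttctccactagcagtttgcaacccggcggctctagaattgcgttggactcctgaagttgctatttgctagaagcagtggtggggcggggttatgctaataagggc
Gbp3: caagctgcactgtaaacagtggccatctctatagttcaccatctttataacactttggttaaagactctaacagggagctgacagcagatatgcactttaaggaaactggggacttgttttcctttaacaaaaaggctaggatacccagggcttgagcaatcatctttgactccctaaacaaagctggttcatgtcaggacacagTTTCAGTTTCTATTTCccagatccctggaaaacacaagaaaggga
Rsad2: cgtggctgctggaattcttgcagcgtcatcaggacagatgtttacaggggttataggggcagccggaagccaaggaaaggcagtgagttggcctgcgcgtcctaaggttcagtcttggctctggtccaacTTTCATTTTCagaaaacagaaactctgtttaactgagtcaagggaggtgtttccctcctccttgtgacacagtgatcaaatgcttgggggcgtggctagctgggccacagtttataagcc
A match describes the letters in this window alone, and the counts were made on another build.

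**Figure D3:**
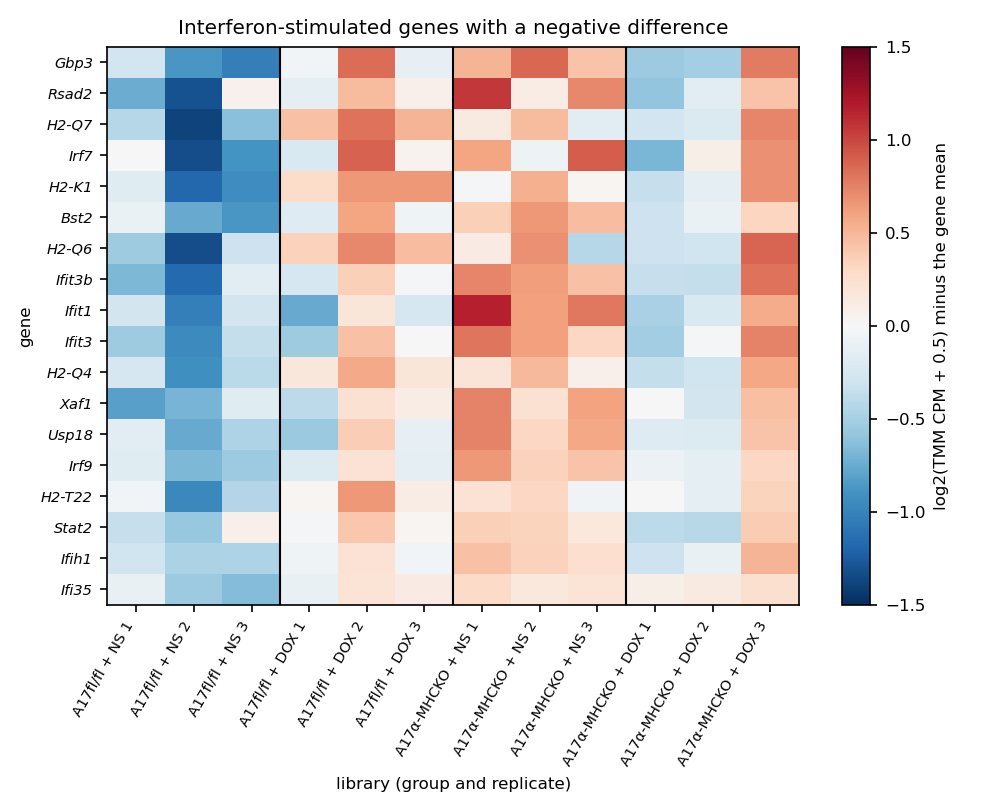
Level of 18 interferon-stimulated genes with a negative interaction and p under 0.05 (rows) in the 12 libraries (columns), as log2 of TMM-scaled CPM plus 0.5 minus the mean of the gene, which runs from -1.39 to 1.17. The A17fl/fl + NS columns are mostly blue, the A17α-MHCKO + NS columns mostly red, and A17α-MHCKO + DOX replicate 3 is red while replicates 1 and 2 of its group are blue.

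The circadian clock runs on BMAL1 (gene Arntl) with CLOCK or NPAS2, which activate Per, Cry, Nr1d and Ciart genes that in turn repress them. Of 22 tested clock genes 18 were positive, with a median interaction of 0.67 (0.70 without replicate 1). Past the limits 3 were positive and 1 negative (1.47% and 0.658% of all tested genes). Without replicate 1, 5 were positive and 3 negative past them (0.89% and 0.823%). Ciart, a repressor of CLOCK and BMAL1, was at 2.48, 7.72 and 3.32 CPM in A17fl/fl + NS, 6.22, 5.66 and 7.58 in A17fl/fl + DOX, 1.3, 1.81 and 1.10 in A17α-MHCKO + NS and 7.43, 6.37 and 6.13 in A17α-MHCKO + DOX. All 3 A17α-MHCKO + NS libraries lay below the other 9, and the interaction was 1.70 ± 0.527.

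Npas2 had the opposite sign. It was at 2.48, 2.33 and 2.94 CPM in A17fl/fl + NS, 3.46, 5.05 and 1.43 in A17fl/fl + DOX, 10.4, 4.84 and 10.8 in A17α-MHCKO + NS and 2.77, 2.27 and 2.73 in A17α-MHCKO + DOX, an interaction of -2.09 ± 0.586. The A17α-MHCKO groups did not overlap, and replicates 1 and 3 of A17α-MHCKO + NS lay above every other library. Arntl was at 23.5, 9.76 and 25.2 CPM in A17α-MHCKO + NS and 19.1 CPM in A17fl/fl + NS replicate 1, against 2.11 to 7.77 CPM in the other 8, and its interaction was -1.28 with and -2.05 without that replicate. Per2 had the sign of Ciart, at 1.17. Leaving out A17fl/fl + NS replicate 2 or 3 brought the list median to 0.34 or 0.41. The clock genes vary over the day, the hour of collection is not given in the sources used here, and its part was not tested.

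**Figure D4:**
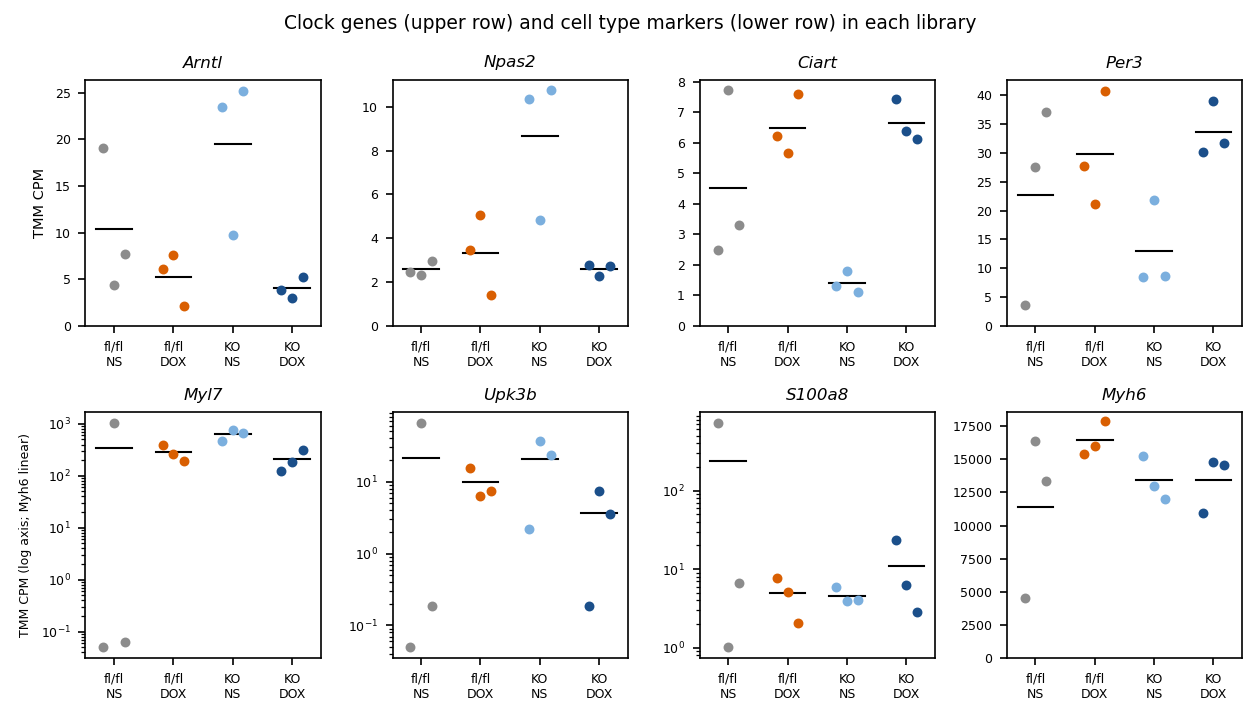
TMM-scaled CPM of 4 clock genes (upper row, linear axes) and of markers of atrium (Myl7), mesothelium (Upk3b), neutrophils (S100a8) and cardiomyocytes (Myh6) in each library, with bars at group means; the lower row has log axes except for Myh6, and values under 0.05 are drawn at 0.05. Arntl and Npas2 are high and Ciart low in A17α-MHCKO + NS, while A17fl/fl + NS replicates 1 and 3 lie at the floor for Myl7.

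Genes of the oxidative stress response had the opposite sign to the interferon list. NRF2 switches on enzymes that detoxify quinones and peroxides, and doxorubicin is itself a quinone. Of 66 tested members 60 were positive, beside 9060 of all 16101 tested genes. At an unadjusted p under 0.05, 15 were positive and 0 negative (3.5% and 2.49% of all tested genes). Past the limits, 9 were positive with and 9 without replicate 1 (1.47% and 0.89%). The median interaction was 0.47 with and 0.25 without replicate 1, made with all libraries of -0.46 in A17fl/fl and 0.06 in A17α-MHCKO mice. Nqo1, which reduces quinones, was at 57.6, 32.1 and 75.4 CPM in A17fl/fl + NS, 34.6, 31.7 and 40.4 in A17fl/fl + DOX, 26.8, 28.6 and 30.2 in A17α-MHCKO + NS and 53, 38.0 and 45.2 in A17α-MHCKO + DOX. The A17fl/fl groups overlapped and the A17α-MHCKO groups did not, and the interaction was 1.299 ± 0.358.

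Prdx6, a peroxidase of phospholipid hydroperoxides, was at 174, 118 and 147 CPM in A17fl/fl + NS, 124, 119 and 114 in A17fl/fl + DOX, 113, 99.0 and 95 in A17α-MHCKO + NS and 138, 139 and 139 in A17α-MHCKO + DOX (0.74 ± 0.208). Here too the A17α-MHCKO groups were apart and the A17fl/fl groups overlapped. A17fl/fl + NS replicates 1 and 3, the libraries with almost no Myl7, were the high ones for both genes. The Nqo1 interaction was 0.84 with the atrial covariate and 0.51 with both of these libraries left out, and the list then had 2 and 0 positive genes past the limits. Hmox1, heme oxygenase 1, rested more on replicate 1 (370 CPM against 20.4 and 70.2 in its group, 12.2 to 20.5 CPM elsewhere), with an interaction of 3.46 and 1.70 without it.

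Heat shock and unfolded protein genes followed, with 37 of 44 positive and a median of 0.38 (0.19 without replicate 1). Of them, 3 positive and 1 negative were past the limits (1.47% and 0.658% of all tested genes). Hspa1b, an inducible HSP70, was at 17.4, 36.4 and 18.9 CPM in A17fl/fl + NS, 8.30, 5.66 and 9.57 in A17fl/fl + DOX, 6.98, 12.2 and 8.72 in A17α-MHCKO + NS and 8.06, 8.38 and 9.11 in A17α-MHCKO + DOX. All A17fl/fl + NS libraries lay above the other 9, and the interaction was 1.498 ± 0.438 and 1.69 without replicate 1; its near-identical copy Hspa1a can share its fragments. Cryab, the small heat shock protein αB-crystallin, was at 655, 478 and 564, then 468, 587 and 497, then 366, 366 and 376, then 697, 528 and 445 CPM in the same order of groups. The A17α-MHCKO + NS libraries were the 3 lowest, and the interaction was 0.72 ± 0.259.

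The extracellular matrix list moved with A17fl/fl + NS replicate 1. With all libraries the median of 50 genes was -0.02 and 3 genes were positive and 3 negative past the limits (1.47% and 0.658% of all tested genes). Without replicate 1 the median was -0.64 and 0 were positive and 8 negative (0.89% and 0.823%). The positive genes were Timp1, Tnc and Lox, an inhibitor of metalloproteases, a matrix glycoprotein of wounds and a collagen cross-linker, whose interactions of 5.58, 5.46 and 3.59 became -0.09, -0.41 and -0.49. Timp1 reached 734 CPM in replicate 1 of A17fl/fl + NS, with 2.9 to 10.2 CPM in the other 11 libraries. Col6a1 (collagen VI) was at 67.3, 144 and 69.2 CPM in A17fl/fl + NS, 136, 150 and 141 in A17fl/fl + DOX, 127, 203 and 129 in A17α-MHCKO + NS and 75.3, 135 and 113 in A17α-MHCKO + DOX, with -1.11 and -0.92. The elastic fibre gene Mfap4 had the sign of Eln, at -1.25 and -1.001 without replicate 1.

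Immune cell lists went in different directions. Of all tested genes, 1.47% were positive and 0.658% negative past the limits, and 0.89% and 0.823% without A17fl/fl + NS replicate 1. The 13 tested neutrophil genes had a median of 5.55, with 10 positive past the limits, and 0.93 with 2 past them without replicate 1, and replicate 1 alone held 179 CPM of the protease gene Mmp9 against 1.40 to 6.52 elsewhere. T and NK cell genes had a median of -1.06, 20 of 21 negative, and -1.11 without replicate 1, but 1 gene, Gzma, was past the limits in either fit, and counts were low. Klrb1c, the NK1.1 receptor, was counted with 3, 1 and 0 fragments in A17fl/fl + NS and 6, 17 and 13 in A17fl/fl + DOX, and with 8, 10 and 7 in A17α-MHCKO + NS and 5, 4 and 12 in A17α-MHCKO + DOX. Cx3cr1, the fractalkine receptor of monocytes and macrophages, was at 2.77, 1.98 and 3.38 CPM in A17fl/fl + NS, 6.6, 11.2 and 9.26 in A17fl/fl + DOX, 4.14, 10.02 and 9.94 in A17α-MHCKO + NS and 6.61, 8.84 and 11.2 in A17α-MHCKO + DOX. All A17fl/fl + NS libraries lay below the other 9, and the interaction was -1.59 ± 0.503. The MHC class II gene H2-Ab1 had -1.58 ± 0.607. Of the 29 macrophage genes tested, 19 were positive, and 2 were positive and 3 negative past the limits with all libraries against 0 and 3 without replicate 1, with medians of 0.50 and -0.35.

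TNF signaling was the pathway the study took up. Of 88 tested genes 11 were positive and 1 negative past the limits with all libraries (1.47% and 0.658% of all tested genes). Without A17fl/fl + NS replicate 1 they were 1 and 1, near the shares of all tested genes (0.89% and 0.823%). The median was then -0.02 in place of 0.30. Cebpb, a transcription factor of the acute phase, was at 427, 189 and 132 CPM in A17fl/fl + NS, 74.8, 59.8 and 59.9 in A17fl/fl + DOX, 131, 84.5 and 96.8 in A17α-MHCKO + NS and 100, 73.5 and 71.9 in A17α-MHCKO + DOX. It was lower after doxorubicin in A17fl/fl mice without overlap, and its interaction of 1.60 ± 0.508 became 0.96. The neutrophil chemokine Cxcl1 was at 64.5 CPM in replicate 1 and between 0.37 and 3.51 CPM elsewhere, with 5.28 and 2.09. Chemokines and cytokines had 10 positive genes of 33 past the limits with and 2 without that replicate (1.47% and 0.89% of all tested genes). Immediate-early genes such as Ier3 and Arc, with 5 and 1 of 34, kept a positive median (0.77 and 0.30).

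Of 34 tested substrates of ADAM17 1 was past the limits with all libraries and 0 without A17fl/fl + NS replicate 1 (2.13% and 1.71% of all tested genes). The substrate Prnp, the prion protein, was at 161, 122 and 157 CPM in A17fl/fl + NS, 110, 110 and 124 in A17fl/fl + DOX, 124, 108 and 98.9 in A17α-MHCKO + NS and 122, 126 and 130 in A17α-MHCKO + DOX, with an interaction of 0.55. Receptors and ligands of the EGF family had 0 of 11 past the limits, with Nrg2, a neuregulin, at -0.96, and ADAM proteases and their partners had 2 of 17 past the limits, both positive, with all libraries and 1, which was negative, without replicate 1. The medians of these lists were 0.23, 0.10 and 0.22 with all libraries and 0.056, 0.058 and -0.14 without replicate 1.

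For genes of the cardiomyocyte itself, the share past the limits over all tested genes was 2.13%, and 1.71% without A17fl/fl + NS replicate 1. Lists of these sizes would hold few or no genes at that share, so nothing is read from counts of 0. Sarcomere genes (28) had a median of -0.03 and nuclear respiratory chain genes (77) of 0.01, with 0 past the limits in each, and calcium handling genes (28) of -0.20, also with 0. Without A17fl/fl + NS replicate 1 these medians were 0.20, 0.07 and -0.02, and 1 sarcomere gene was positive past the limits. Tnnc1, cardiac troponin C, was at 1217, 1283 and 1355 CPM in A17fl/fl + NS, 1418, 1715 and 1518 in A17fl/fl + DOX, 1237, 1082 and 839 in A17α-MHCKO + NS and 2153, 1776 and 1735 in A17α-MHCKO + DOX (0.57 ± 0.239). Within both genotypes doxorubicin libraries lay above saline libraries, by more in A17α-MHCKO mice. Jph2, which holds the dyad of T-tubule and sarcoplasmic reticulum together, was at 314, 538 and 337 CPM in A17fl/fl + NS and 611, 579 and 721 in A17fl/fl + DOX, and at 556, 532 and 443 in A17α-MHCKO + NS and 485, 450 and 524 in A17α-MHCKO + DOX (-0.76 ± 0.289). Camk2d, the main cardiac CaM kinase, had -0.72 ± 0.256, and both it and Jph2 were lower in A17fl/fl + NS than in all A17fl/fl + DOX libraries. The interactions of Jph2 and Camk2d were -0.61 and -0.64 without A17fl/fl + NS replicate 1. They were -0.57 and -0.57 with the atrial covariate, and -0.32 and -0.51 without A17fl/fl + NS replicates 1 and 3.

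In metabolism, the coactivator gene Ppargc1b was at 6.35, 14.9 and 9.34 CPM in A17fl/fl + NS, 22.1, 20.9 and 19.3 in A17fl/fl + DOX, 11.4, 16.7 and 15.7 in A17α-MHCKO + NS and 13.3, 15.7 and 14.6 in A17α-MHCKO + DOX (-1.04 ± 0.370). It separated in A17fl/fl mice alone. The Ppargc1b interaction was -0.79 without A17fl/fl + NS replicate 1, -0.69 with the atrial covariate and -0.50 without replicates 1 and 3. Bdh1, an enzyme of ketone use, had 1.98 ± 0.785, and the respiratory subunits Cox6a2 and Cox8b 0.84 and 0.86. With the atrial covariate Bdh1, Cox6a2 and Cox8b had 1.39, 0.83 and 0.68. Without A17fl/fl + NS replicates 1 and 3 they had 0.77, 0.96 and 0.50. The lipid synthesis genes Fasn and Scd1, which adipocytes express strongly, had -2.46 and -2.24. Their levels varied widely within groups, as with Fasn at 31.7, 211 and 124 CPM in A17α-MHCKO + NS, and the adipocyte gene Adipoq was at 2.16, 7.17 and 9.07 CPM there, and the part of fat tissue was not tested.

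Atrial genes had a median of -0.97, negative in 18 of 19, and 0.03 when A17fl/fl + NS replicates 1 and 3 were left out. Gja5, connexin 40 of atrium, conduction system and arteries, was at 17, 17.7 and 9.84 CPM in A17fl/fl + NS, 24.6, 25.9 and 15.5 in A17fl/fl + DOX, 16.4, 52.8 and 39.4 in A17α-MHCKO + NS and 11, 16.2 and 21.5 in A17α-MHCKO + DOX (-1.72 ± 0.570, and -1.28 with the atrial covariate). Cacna1s, the skeletal L-type calcium channel subunit, went the other way, at 5.14, 12.6 and 18.6 CPM in A17fl/fl + NS, 8.74, 8.19 and 8.39 in A17fl/fl + DOX, 6.73, 4.62 and 5.41 in A17α-MHCKO + NS and 14.9, 14.1 and 12.1 in A17α-MHCKO + DOX. Its interaction was 1.81 ± 0.499 and 2.19 (adjusted p = 0.0948) without replicate 1. The A17α-MHCKO groups of Cacna1s were apart, and replicate 1 was the lowest of its own group. Of the 13 tested genes of the skeletal muscle list, which holds Cacna1s, 9 were negative (median -0.37), among them Tnni2 at -1.28.

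**Figure D5:**
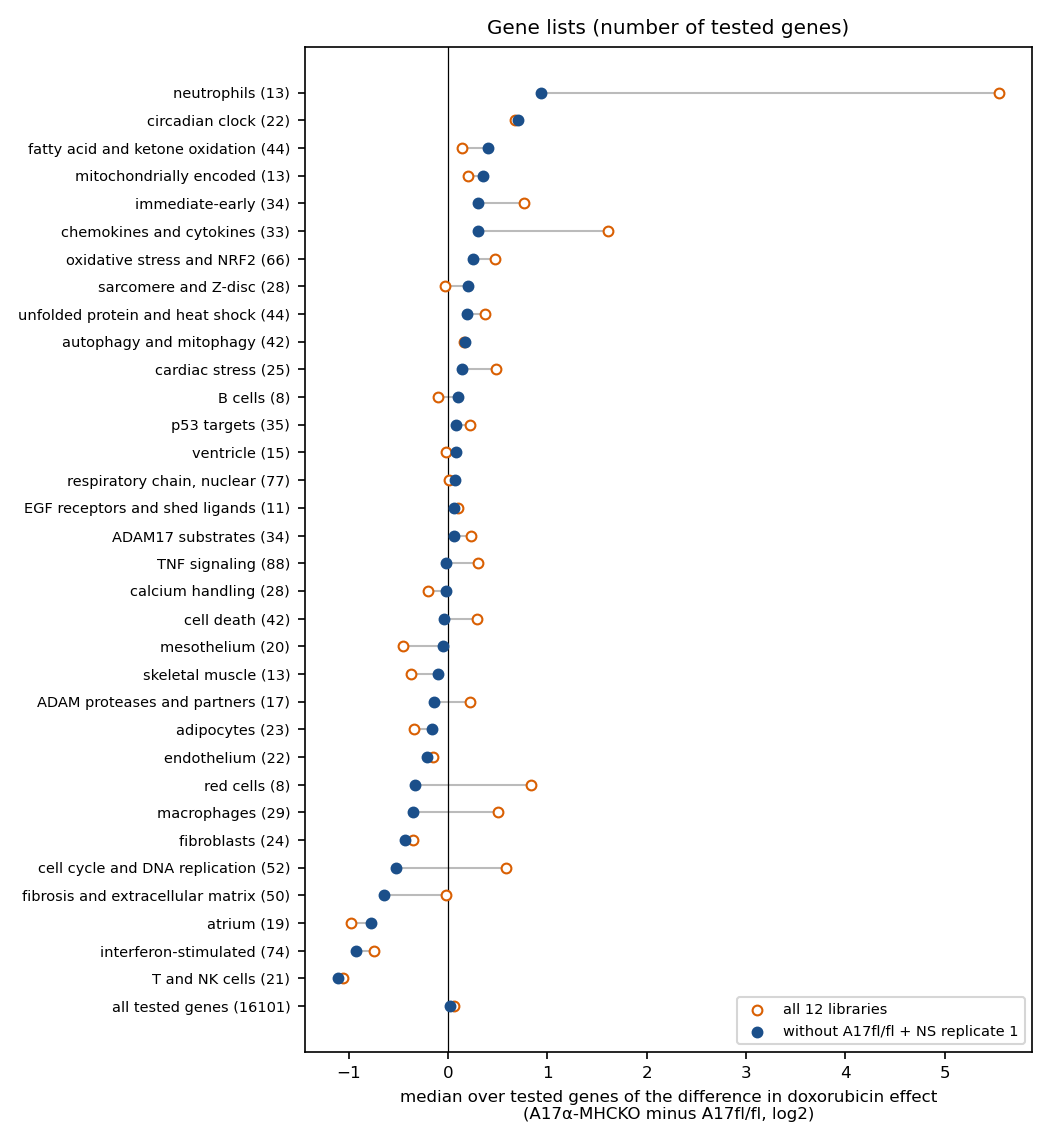
Median interaction (log2, A17α-MHCKO minus A17fl/fl) over the tested genes of 33 lists and of all tested genes, with all 12 libraries (open orange) and without A17fl/fl + NS replicate 1 (blue), numbers of tested genes in brackets. Interferon, T and NK cell and circadian medians stay near their value, and neutrophil, chemokine, macrophage and cell cycle medians move by more than 0.5.

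Over all 34 lists, the median kept 1 sign in all 23 alternative fits for 12, which include the interferon, T and NK cell, circadian, oxidative stress, heat shock and immediate-early lists. For the other lists at least 1 setting turned the sign, as for cell cycle and DNA replication genes, at 0.58 with and -0.52 without A17fl/fl + NS replicate 1. The p53 targets, which doxorubicin activates through DNA damage, had 1 positive and 1 negative gene of 35 past the limits (1.47% and 0.658% of all tested genes). The negative one was the proapoptotic Bbc3 (PUMA), at 6.23, 5.5 and 5.33 CPM in A17fl/fl + NS, 6.16, 7.69 and 7.46 in A17fl/fl + DOX, 9.51, 7.38 and 12.5 in A17α-MHCKO + NS and 5.29, 6.63 and 6.38 in A17α-MHCKO + DOX (-1.002 ± 0.297). Its A17α-MHCKO groups did not overlap.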

How the data were processed

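The authors deposited 1 table for 12 mouse heart libraries, with a whole-number count per gene, made by StringTie from stranded paired-end mRNA reads and not normalized, and an FPKM per gene, scaled by gene length and library total. The submitters' processing notes list HISAT2, SAMtools 1.3.1, CASAVA 1.8 and the build GRCm39. Every column was matched to its library by label.

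The test was edgeR 4.0.16 in R 4.3.3 (filterByExpr, TMM, glmQLFit, glmQLFTest, Benjamini-Hochberg adjustment), with a model of 4 group means over all 12 libraries, and the interaction was a contrast of them. The SE is approximate, from the log2 value and its F statistic. FPKM served only for the limit of 1. DESeq2 1.42.0 and limma 3.58.1 were alternatives. On simulated counts for this contrast in 15912 genes, an unadjusted p under 0.05 recovered 54% of genes changed by a log2 value of 1 and 92% at 2, and an adjusted p 4% and 54%.

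The comparison, its 34 gene lists, the roles within the interferon list and the alternatives were chosen with earlier results of these data known. Genes named are the 8 with the smallest p in each direction among genes past the limits with and without A17fl/fl + NS replicate 1, the 3 in each direction past them only with it, Adam17, Traf3, and up to 2 members per list by p whose direction holds without it. Not all of the latter are described, and 3 genes are not reported here. Arntl, Per2, Gbp3, Rsad2, H2-K1, Hmox1, Timp1, Tnc and Lox were named after their values were seen. Promoters are RefSeq, GRCm38.p6.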

Additional observations from a re-analysis of the deposited data

How the results depend on the processing

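The number of genes past the limits was 343 and was within 1.5 times of this under most alternatives, but was 193 with the atrial covariate (chosen after seeing the data), and 226 to 963 when each library was left out in turn, with 963 without A17fl/fl + NS replicate 2, 656 without replicate 3 and 226 without A17α-MHCKO + DOX replicate 1. In the fit without replicate 2 the A17fl/fl + NS group is left with the 2 libraries that hold almost no Myl7, and Myl7, Sln and Myl4 are among the called genes. Genes at an adjusted p under 0.05 numbered 0 by edgeR, 21 by DESeq2 and 11 by the likelihood ratio test, 0 to 81 with each library left out (81 without A17fl/fl + NS replicate 2, 1 without A17fl/fl + DOX replicate 1), and 2 (Cacna1s and Eln) with the atrial covariate and A17fl/fl + NS replicate 1 left out, and 2 with A17fl/fl + NS replicates 1 and 3 left out, which leaves 1 library assumed to vary like the rest. The share of positive genes past the limits was 69.1%, and 48.6% by limma voom with library weights, 45.1% with the atrial covariate and 53.1% with the replicate block. The cause of these shifts was not tested.

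Deviations of same-numbered libraries correlated at r from -0.104 to 0.219 over 18 pairs, 3 of them above 0.1. Differently numbered pairs were not set beside them, so whether a number marks a shared batch was not tested. A replicate block gave 290 genes past the limits (53.1% of them positive) and 0 at an adjusted p under 0.05.

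The Adam17 interaction of 0.015 turned to -0.029 with upper-quartile factors, -0.003 without a filter, -0.006 with at least 10 counts, -0.115 by voom, -0.069 with the atrial covariate, -0.193 with it and replicate 1 left out, and -0.153 with replicates 1 and 3 left out, and ran from -0.219 to 0.153 with each library left out. Among the other genes chosen by the naming rule direction held in every alternative, and 206 values left their side of the threshold while 1380 did not.

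With 3 libraries per group and a common dispersion of 0.0842 (0.0446 without A17fl/fl + NS replicate 1), an interaction of log2 1 was often not detectable.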
